A study of Canis lupus familiaris with 4 samples.

Results

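The genes described here are the α and β subunits of the hypoxia-inducible factors (HIFs) and the proteins that couple them to oxygen. They are *EPAS1* (HIF2α), *HIF1A*, *HIF3A*, *ARNT*, *VHL*, *EGLN1*, *EGLN2*, *EGLN3*, *HIF1AN* and *ANKRD37*. They were chosen by name, and every probe set that the array annotation ties to 1 of these symbols alone was taken, which gave 23 of the 42924 probe sets on the array and 10 of the 15115 genes that have such a probe set.

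Expression was measured in HIF2α-KD and control MDCK cells, a canine kidney epithelial line (MDCKII), in hypoxia and in normoxia. All cells spent 24 h in normoxia and then 24 h at either oxygen level. Each of the 4 conditions was measured on 1 Affymetrix canine array, so no error or p-value can be given for the difference between any 2 of them. In the sample labels the control cells are called wild type. By the methods, knockdown lines were made with retroviral shRNA vectors under puromycin selection. The main text of the study adds that control cells were infected with a virus without a hairpin in its shRNA cassette. Which of the knockdown lines was hybridised is not in the sample labels. For normoxia the main text of the study names HIF2α-KD#1, and no source used here calls it a clone.

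HIFα proteins are made continuously, and in oxygenated cells the prolyl hydroxylases encoded by *EGLN1*, *EGLN2* and *EGLN3* mark them for the ubiquitin ligase that contains VHL, which sends them to degradation. The asparaginyl hydroxylase FIH, encoded by *HIF1AN*, blocks their contact with coactivators. When oxygen falls these steps slow down, HIFα pairs with ARNT and target genes are transcribed, among them, in many cell types, *EGLN1*, *EGLN3* and *ANKRD37*. The arrays measured mRNA only, and HIF activity is set largely at the protein level. In bulk RNA, fewer cells that express a gene and less RNA per cell cannot be told apart.

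The values are linear intensities, and differences are given on the scale log2(intensity + 16), which understates the difference of dim probe sets. A probe set was kept where its highest intensity reached 28.75, the median of the table, and 23455 were kept. Median intensities were 28.3 to 29.2 over the arrays. The 95th percentile of 63 dim reporter control probe sets, used here as background, was 20.6 to 27.2. Of 7 renal epithelial markers, 4 (*CDH16*, *EPCAM*, *KRT8* and *KRT18*) were above background on every array, while *PAX2* and *PAX8* were not kept. The remaining marker, *CDH1* (E-cadherin), moved with oxygen, with 81.4 in HIF2α-KD and 119 in control cells in hypoxia, and 18.9 in HIF2α-KD and 15.5 in control cells in normoxia, both below background. Its part in the oxygen differences given here was not tested. None of 6 fibroblast markers was kept (summed intensity 69.2 to 73.1 over the arrays), and 1 of 6 endothelial markers (summed 135 to 161) and 4 of 6 leukocyte markers (summed 147 to 164) were. Of 9 known hypoxia targets that were kept, 6 were at least 2-fold higher in hypoxia under each cell line label.

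*EGLN1*, *EGLN3* and *ANKRD37* rose in hypoxia under both cell line labels, while the other regulators and *HIF1A* stayed within 2-fold. *EPAS1*, the target of the knockdown, was 2-fold higher in hypoxia in control cells alone, and it was 2-fold lower in HIF2α-KD than in control cells in hypoxia and not in normoxia. Of the 23 probe sets, 16 were kept, with at least 1 for every gene. Both *EGLN3* probe sets, *ANKRD37* CfaAffx.12205.1.S1_at and *HIF3A* CfaAffx.7437.1.S1_at were kept through a hypoxic array only. The other 7 probe sets were too dim, of which 4 were above background on none of the arrays, 2 on 1 array and 1 on 2 arrays.

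**Figure D1:**
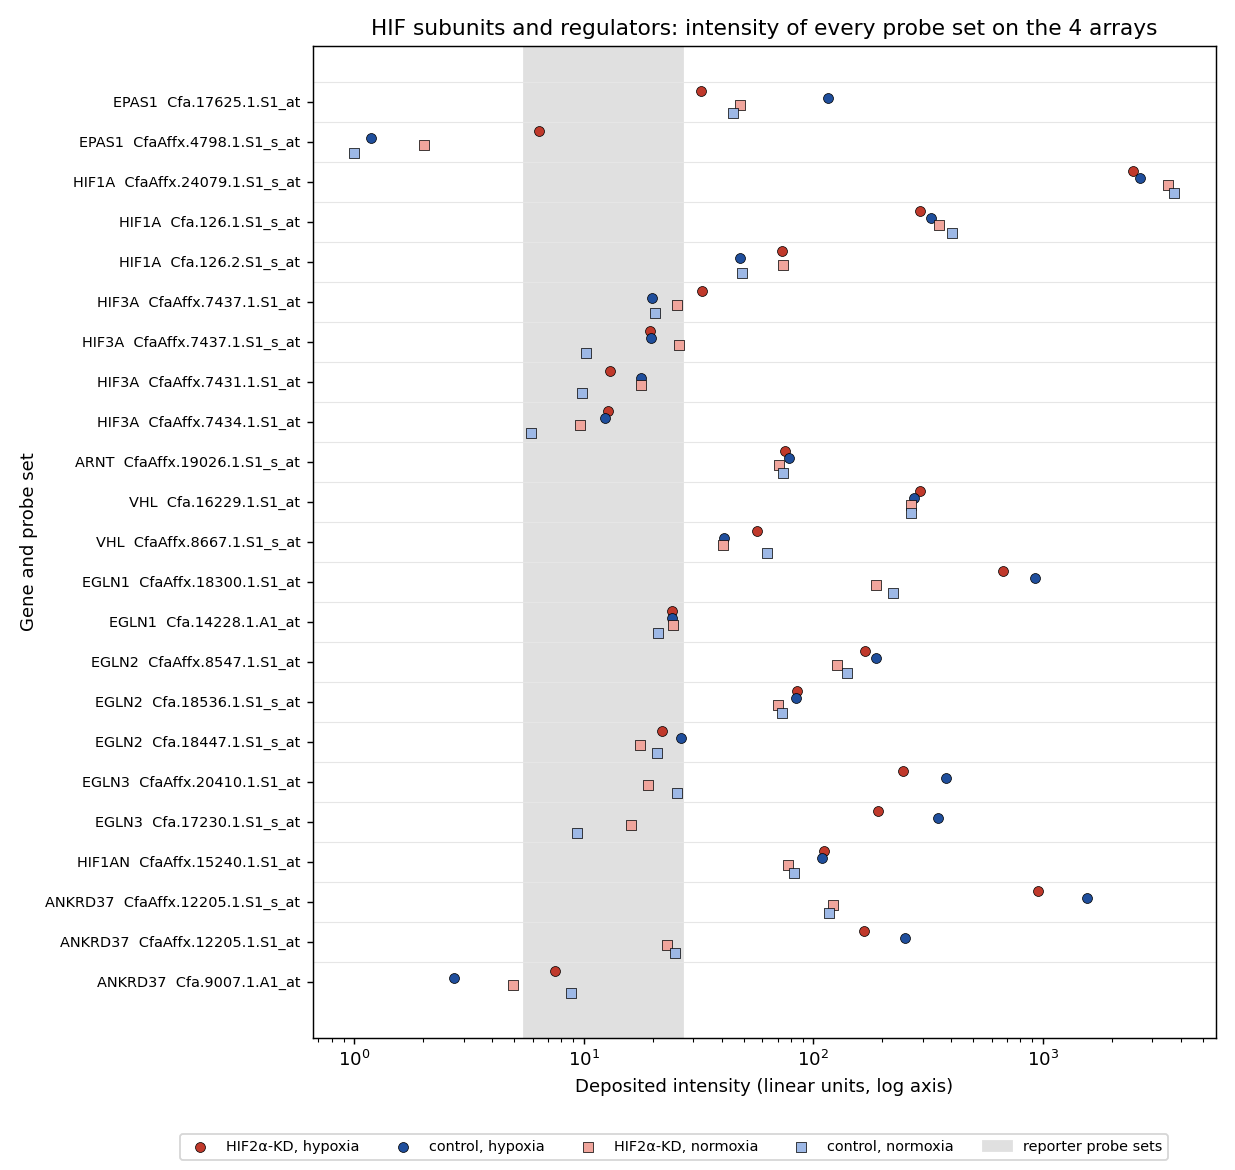
Deposited intensity (log axis) of all 23 probe sets of the HIF subunits and regulators, with 1 point per array and the grey band running from the lowest reporter median to the highest reporter 95th percentile. The hypoxic points of the kept probe sets of *EGLN1*, *EGLN3* and *ANKRD37* lie right of their normoxic points, those of the dim probe sets Cfa.14228.1.A1_at and Cfa.9007.1.A1_at do not, and for *EPAS1* Cfa.17625.1.S1_at the hypoxic control array, at 116, stands apart from 32.6 to 47.9 on the other arrays.

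*EPAS1* encodes HIF2α, the subunit that the shRNA targets. Its probe set Cfa.17625.1.S1_at read 32.6 in HIF2α-KD and 116 in control cells in hypoxia, and 47.9 in HIF2α-KD and 44.6 in control cells in normoxia. The hypoxic control array was thus the high one, and the other arrays lay close together. In hypoxia the HIF2α-KD intensity was 28.0% of the control intensity, a log2 difference of -1.45, which was the 34th lowest of 23455. In normoxia it was 107% of the control intensity, a log2 difference of 0.08, so the array labelled HIF2α-KD in normoxia showed no lower *EPAS1* mRNA than its control. HIF2α-KD therefore stands throughout for the arrays that carry this label, and each direction between the cell lines in normoxia is drawn from the label alone. Between oxygen levels the log2 difference was -0.40 in HIF2α-KD cells and 1.13 in control cells, hypoxia minus normoxia. All of these values were above background. However, 4 of 6 leukocyte markers were above it on every array too, among them *CD3E* at 35.1 to 45.3 and *PTPRC* at 31.9 to 39.4. The *EPAS1* values outside the hypoxic control array lay in or near this range. The endothelial marker *CDH5* was above background on every array as well, at 88.8 to 117, which takes in the hypoxic control *EPAS1* value of 116. Whether any of the *EPAS1* values stands above nonspecific signal was not tested, nor was this tested for other genes of similar intensity. The second *EPAS1* probe set, CfaAffx.4798.1.S1_s_at, had 1.00 to 6.39 on the arrays and was below background on each, so the level of *EPAS1* rests on a single probe set.

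*HIF1A* encodes HIF1α, the α subunit found in most cell types. Its brightest probe set, CfaAffx.24079.1.S1_s_at, had 2473 in HIF2α-KD and 2651 in control cells in hypoxia, and 3503 in HIF2α-KD and 3755 in control cells in normoxia. Both hypoxic arrays were below both normoxic arrays. The log2 difference between hypoxia and normoxia was -0.50 in HIF2α-KD cells and -0.50 in control cells, and that between HIF2α-KD and control cells was -0.10 at either oxygen level. Cfa.126.1.S1_s_at showed the same order of the 4 arrays with smaller oxygen differences, -0.27 in HIF2α-KD and -0.29 in control cells. The third, Cfa.126.2.S1_s_at, was set apart by the cell line and not by oxygen, with 73.4 and 74.0 in HIF2α-KD cells and 48.0 and 48.9 in control cells in hypoxia and normoxia. Its log2 difference between HIF2α-KD and control cells was 0.48 in hypoxia and 0.47 in normoxia, so the *HIF1A* probe sets disagreed in direction on the knockdown.

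*HIF3A* encodes HIF3α, some isoforms of which are known to restrain the other α subunits. All of its 4 probe sets lay at or near background. The kept probe set, CfaAffx.7437.1.S1_at, had 33.0 in HIF2α-KD and 19.8 in control cells in hypoxia, and 25.5 in HIF2α-KD and 20.5 in control cells in normoxia, above background on both HIF2α-KD arrays only. CfaAffx.7437.1.S1_s_at, CfaAffx.7431.1.S1_at and CfaAffx.7434.1.S1_at spanned 5.92 to 26.0, and no order of the arrays can be read from them.

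*ARNT* encodes HIF1β, the partner that every HIFα needs to bind DNA. CfaAffx.19026.1.S1_s_at had 75.6 in HIF2α-KD and 78.9 in control cells in hypoxia, and 71.0 in HIF2α-KD and 74.3 in control cells in normoxia. The log2 differences were 0.07 for oxygen in either cell line and -0.05 for the knockdown at either oxygen level, small beside the range from -0.73 to 1.13 that held the central 95% of oxygen differences in control cells. With quantile normalization the oxygen difference in control cells was -0.02, so no direction is read for *ARNT*.

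The prolyl hydroxylase that acts as the main oxygen sensor of HIF1α in many cells is encoded by *EGLN1* (PHD2). CfaAffx.18300.1.S1_at had 674 in HIF2α-KD and 928 in control cells in hypoxia, and 188 in HIF2α-KD and 224 in control cells in normoxia. The hypoxic intensity was 3.59 times the normoxic one in HIF2α-KD cells and 4.15 times in control cells, with log2 differences of 1.76 and 1.98, the 68th and 94th highest of 23455 under each label. Cfa.14228.1.A1_at, the other *EGLN1* probe set, had 21.1 to 24.6 on the arrays and was not kept.

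*EGLN2* (PHD1) encodes the prolyl hydroxylase that is usually not induced by hypoxia. CfaAffx.8547.1.S1_at had 168 in HIF2α-KD and 188 in control cells in hypoxia, and 127 in HIF2α-KD and 140 in control cells in normoxia. Its oxygen difference was 0.36 in HIF2α-KD and 0.39 in control cells. Cfa.18536.1.S1_s_at gave 0.22 in HIF2α-KD and 0.17 in control cells, and the dim Cfa.18447.1.S1_s_at, with 17.5 to 26.5 on the arrays, was not kept. The hypoxic arrays were the higher ones for both kept probe sets, by less than 2-fold. The dim probe set was above background on 1 array only, so no order is read from it.

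*EGLN3* (PHD3), the prolyl hydroxylase best known as strongly hypoxia-inducible, moved by more. CfaAffx.20410.1.S1_at had 247 in HIF2α-KD and 380 in control cells in hypoxia, and 19.1 in HIF2α-KD and 25.5 in control cells in normoxia. Cfa.17230.1.S1_s_at had 193 in HIF2α-KD and 349 in control cells in hypoxia, and 16.1 in HIF2α-KD and 9.32 in control cells in normoxia. All 4 normoxic values were below background, so the folds are lower bounds, set against the reporter percentile of the normoxic array. *EGLN3* was at least 12.0-fold higher in hypoxia in HIF2α-KD cells and at least 13.9-fold higher in control cells by CfaAffx.20410.1.S1_at, and at least 9.34-fold in HIF2α-KD and at least 12.8-fold in control cells by Cfa.17230.1.S1_s_at. The log2 differences, which include the unmeasured normoxic level, were 2.91 in HIF2α-KD and 3.25 in control cells for CfaAffx.20410.1.S1_at, and 2.70 in HIF2α-KD and 3.85 in control cells for Cfa.17230.1.S1_s_at.

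FIH, the asparaginyl hydroxylase encoded by *HIF1AN*, was read by CfaAffx.15240.1.S1_at. It had 111 in HIF2α-KD and 109 in control cells in hypoxia, and 78.1 in HIF2α-KD and 82.8 in control cells in normoxia. Both hypoxic arrays were above both normoxic arrays, with oxygen differences of 0.44 in HIF2α-KD and 0.35 in control cells.

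*VHL* encodes the substrate receptor of the ubiquitin ligase. Cfa.16229.1.S1_at had 292 in HIF2α-KD and 274 in control cells in hypoxia, and 266 in HIF2α-KD and 266 in control cells in normoxia, nearly level over the arrays. Its oxygen difference in control cells was 0.04, and it was -0.05 with quantile normalization and -0.01 with cyclic loess, so no direction is read from it. CfaAffx.8667.1.S1_s_at was dimmer and had 57.0 in HIF2α-KD and 40.9 in control cells in hypoxia, and 40.7 in HIF2α-KD and 63.2 in control cells in normoxia. Its oxygen difference was 0.36 in HIF2α-KD and -0.48 in control cells, opposite in sign, while the brighter probe set was nearly level. No oxygen direction is therefore read for *VHL*.

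*ANKRD37* encodes a small ankyrin repeat protein and is a HIF target in many cell types, and HIF activity itself was not measured here. CfaAffx.12205.1.S1_s_at had 958 in HIF2α-KD and 1556 in control cells in hypoxia, and 122 in HIF2α-KD and 118 in control cells in normoxia. The hypoxic intensity was 7.85 times the normoxic one in HIF2α-KD cells and 13.2 times in control cells, with log2 differences of 2.82 in HIF2α-KD and 3.55 in control cells, the 7th highest of 23455 under either label. CfaAffx.12205.1.S1_at had 167 in HIF2α-KD and 253 in control cells in hypoxia, and 23.2 in HIF2α-KD and 25.1 in control cells in normoxia. *ANKRD37* was 7.20-fold higher in hypoxia in HIF2α-KD cells by this probe set and at least 9.28-fold higher in control cells, where the normoxic value was below background. The third probe set, Cfa.9007.1.A1_at, had 2.72 to 8.82 and was below background on every array.

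Counted at 2-fold, 5 of the 16 kept probe sets were higher in hypoxia in HIF2α-KD cells, beside 1.48% of all kept probe sets, and 6 of 16 in control cells, beside 3.47%. None of the 16 was 2-fold lower in hypoxia, beside 0.627% of all in HIF2α-KD cells and 0.682% in control cells. The 5 belong to *EGLN1*, *EGLN3* and *ANKRD37*, and the sixth in control cells is *EPAS1*. Because 4 of the 16 were kept through a hypoxic array only, these counts describe the kept probe sets and are no measure of all 23. The median oxygen difference of the 16, which carries the same selection, was 0.30 in HIF2α-KD and 0.26 in control cells, beside 0.03 over all kept probe sets under either label.

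**Figure D2:**
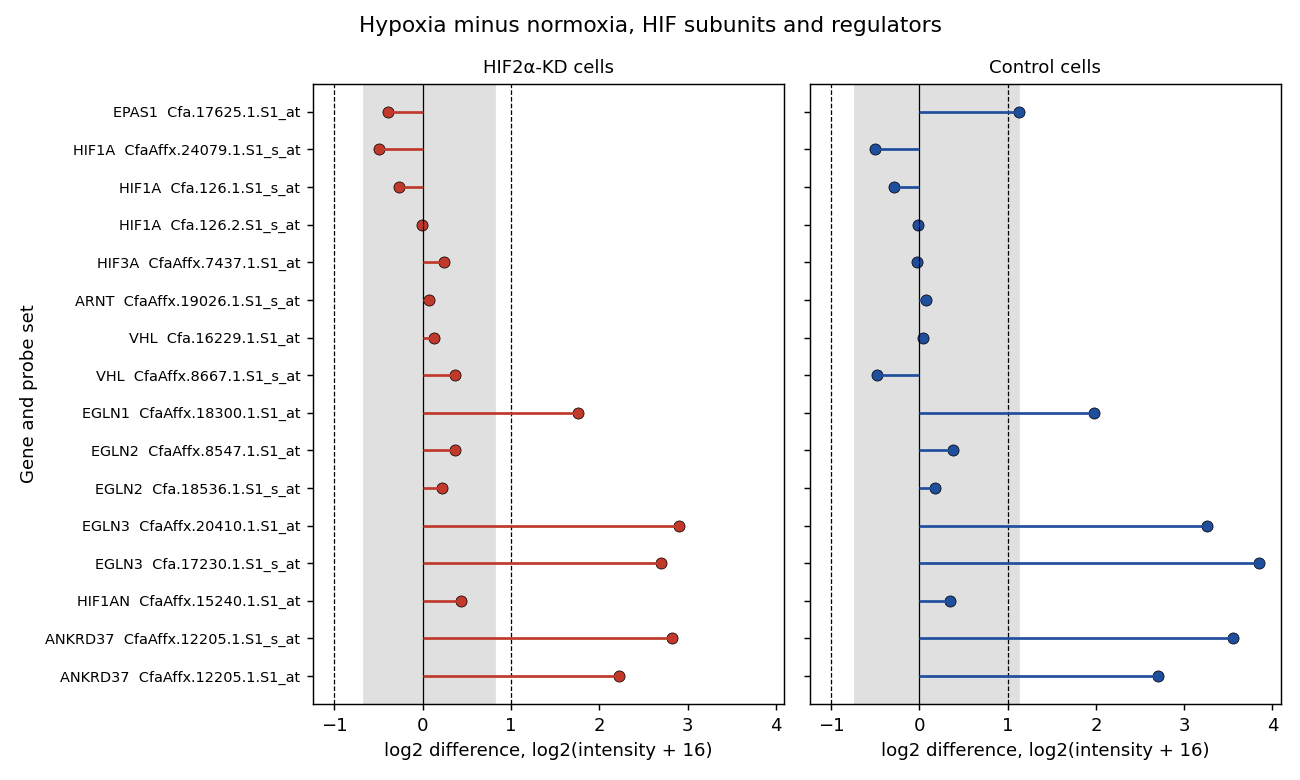
Hypoxia minus normoxia, in log2(intensity + 16), for the 16 kept probe sets in HIF2α-KD cells (left) and control cells (right). Grey bands hold the central 95% of all 23455 kept probe sets and dashed lines mark 2-fold. The *EGLN1*, *EGLN3* and *ANKRD37* points lie between 1.76 and 3.85, and *EPAS1* lies at -0.40 in HIF2α-KD and 1.13 in control cells.

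**Figure D3:**
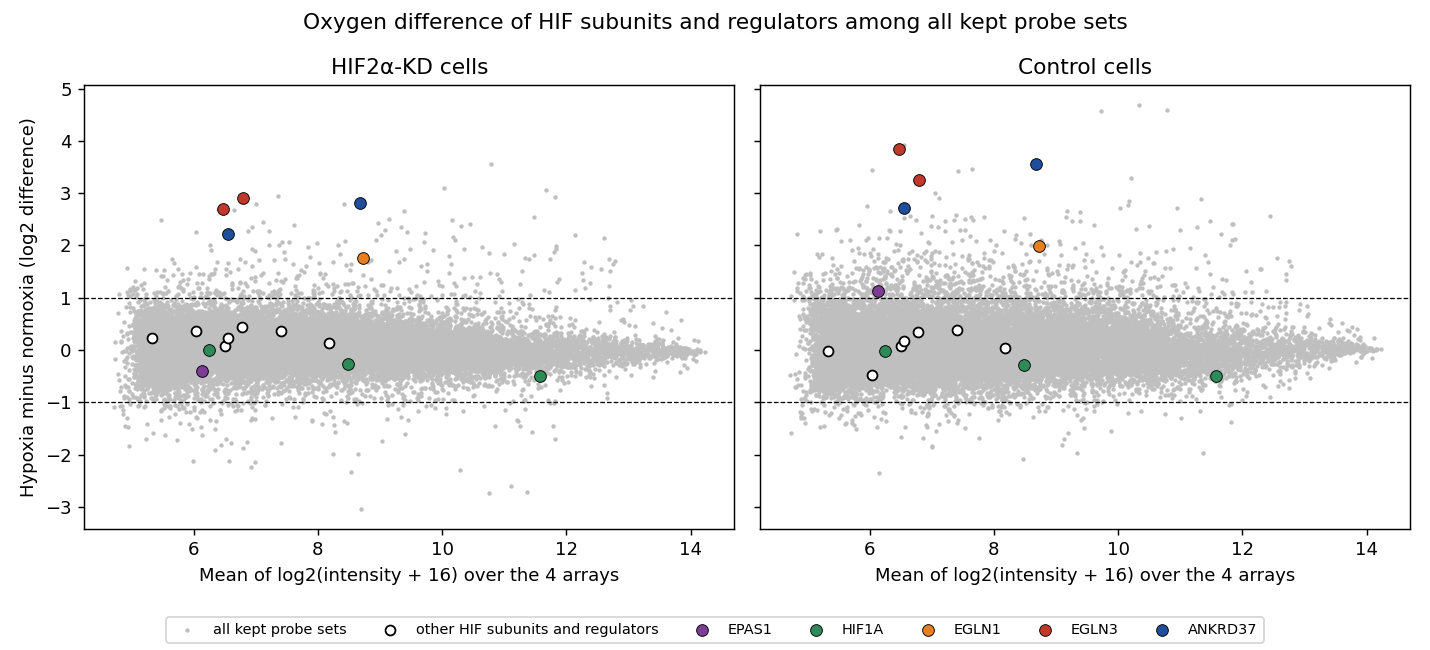
Hypoxia minus normoxia (log2 difference) against mean log2(intensity + 16) for all kept probe sets (grey) in HIF2α-KD cells (left) and control cells (right), with the HIF subunits and regulators in colour or as open circles and dashed lines at 2-fold. *EGLN3* and *ANKRD37* stand at the upper edge of the cloud in both panels, while *HIF1A* lies at or below 0.

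A fit with limma over the 4 arrays, with additive terms for oxygen and cell line, gave the oxygen difference a standard error from 1 residual degree of freedom and a prior over all probe sets. It assumes the same oxygen difference in both cell lines, and its residual holds any departure from this. After Benjamini-Hochberg adjustment over 23455 probe sets, the fit called 5 of 16 higher in hypoxia, beside 3.11% of all, and 0 lower, beside 0.874%. With quantile normalization the split over all probe sets was 660 higher and 340 lower, against 729 and 205 without it. *EGLN1* rose by 1.87 ± 0.15 (SE, limma adjusted p = 0.0023). *ANKRD37* CfaAffx.12205.1.S1_s_at rose by 3.19 ± 0.20 (limma adjusted p = 0.00089). *EGLN3* passed on both probe sets, with fitted differences of 3.08 ± 0.16 (limma adjusted p = 0.00059) and 3.27 ± 0.26 (limma adjusted p = 0.0019), and *ANKRD37* CfaAffx.12205.1.S1_at with 2.46 ± 0.17 (limma adjusted p = 0.0013). These 3 probe sets were kept through hypoxic arrays only and had normoxic values below background, on both arrays for *EGLN3* and on the control array for *ANKRD37*, so their fitted sizes and errors include an unmeasured level and the lower bounds above stand for their folds. *HIF1A* CfaAffx.24079.1.S1_s_at, at -0.50 ± 0.11, did not pass (limma adjusted p = 0.054), although it was called with median centring and with robust moderation, and over all settings the adjusted p ran between 0.0362 and 0.184. *HIF1AN* at 0.39 ± 0.14 (limma adjusted p = 0.17) and *EGLN2* CfaAffx.8547.1.S1_at at 0.37 ± 0.14 (limma adjusted p = 0.18) did not pass either. For *EPAS1* the term was 0.37 ± 0.32 (limma adjusted p = 0.56), an average over oxygen differences of opposite sign.

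Between the cell lines in hypoxia, 1 of the 16 probe sets was 2-fold lower in HIF2α-KD than in control cells, beside 0.853% of all kept probe sets, and 0 were 2-fold higher, beside 0.158%. The 1 probe set was *EPAS1* Cfa.17625.1.S1_at. On the normoxic array labelled HIF2α-KD 0 of 16 were 2-fold higher, beside 0.627%, and 0 were 2-fold lower, beside 0.567%. The 5 probe sets of *EGLN1*, *EGLN3* and *ANKRD37* that rose in hypoxia read 55.2% to 72.6% of the control intensity in hypoxic HIF2α-KD cells, with log2 differences from -0.81 to -0.45, each under 2-fold. Of these only *EGLN3* Cfa.17230.1.S1_s_at, at -0.81, lay outside the central 95% of all kept probe sets, -0.74 to 0.52. The median of all was -0.04. The 5 were also singled out by their rise on these same hypoxic arrays. In normoxia the log2 difference between HIF2α-KD and control cells was -0.23 for *EGLN1* and 0.04 for *ANKRD37* CfaAffx.12205.1.S1_s_at, while for both *EGLN3* probe sets the normoxic values were below background and give no order.

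**Figure D4:**
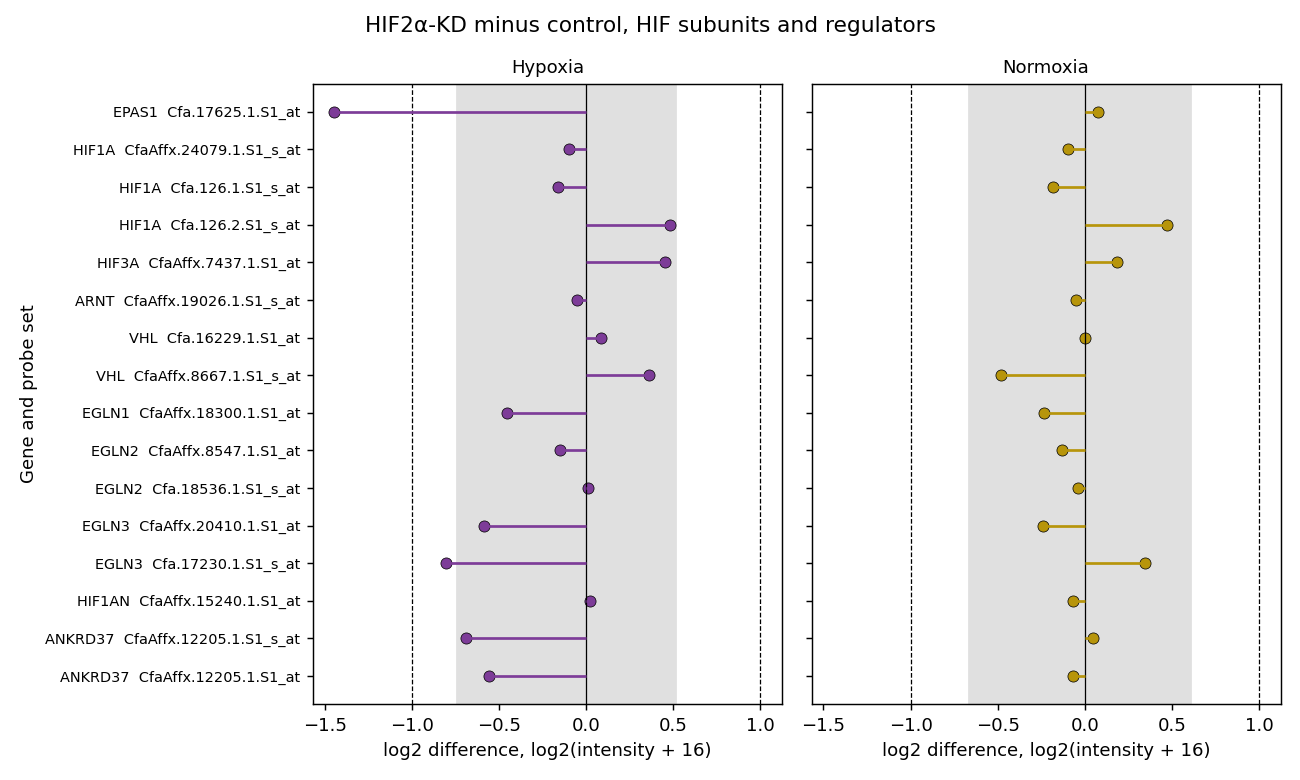
HIF2α-KD minus control, in log2(intensity + 16), for the 16 kept probe sets in hypoxia (left) and normoxia (right), with grey bands for the central 95% of all kept probe sets and dashed lines at 2-fold. *EPAS1* is at -1.45 in hypoxia and 0.08 in normoxia, and *EGLN3* Cfa.17230.1.S1_s_at, at -0.81, is the other point outside the band in hypoxia.

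Where both oxygen levels were above background, the difference between the oxygen differences, HIF2α-KD minus control, was -0.22 for *EGLN1* and -0.73 for *ANKRD37* CfaAffx.12205.1.S1_s_at, beside a central 95% range of -0.91 to 0.70 over all kept probe sets. For both *EGLN3* probe sets and *ANKRD37* CfaAffx.12205.1.S1_at the normoxic side was not measured above background on every array, and no such difference is given. *EPAS1*, at -1.52, was the 103rd lowest of 23455, and *VHL* CfaAffx.8667.1.S1_s_at, at 0.84, was the 322nd highest. With 1 array per condition these differences could not be tested.

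For the knockdown term, limma called 0 of 16 higher, beside 0% of all, and 0 lower, beside 0%, with 0.0588 as the smallest adjusted p over all probe sets. At an unadjusted p under 0.05 there were 576 higher and 1719 lower in HIF2α-KD cells over all probe sets, and among the 16 there was 1 higher and 1 lower. These were *HIF1A* Cfa.126.2.S1_s_at at 0.48 ± 0.15 (limma adjusted p = 0.36) and *EGLN3* CfaAffx.20410.1.S1_at at -0.41 ± 0.16 (limma adjusted p = 0.45), which includes its normoxic values below background. *EPAS1* itself was at -0.68 ± 0.32 (limma adjusted p = 0.57), since the term averages its unequal differences in hypoxia and normoxia.

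Among other genes of the pathway, taken by the brightest kept probe set of each, none was 2-fold different in any of the 4 comparisons, and the shares of all 9749 genes that were are given beside it. Higher in hypoxia were 1.38% of genes in HIF2α-KD and 3.05% in control cells, and lower were 0.421% in HIF2α-KD and 0.544% in control cells. Higher in HIF2α-KD than in control cells were 0.103% in hypoxia and 0.615% in normoxia, and lower were 0.882% in hypoxia and 0.544% in normoxia. At these shares few such genes would fall in lists this short, and the count of 0 is not read as a result. The VHL ligase list kept 5 of its 6 genes, *VHL* included, with a median oxygen difference of 0.13 in HIF2α-KD and 0.04 in control cells. The scaffold *CUL2* had the greatest oxygen difference in control cells, with 0.23 in HIF2α-KD and 0.35 in control cells. The prefoldin subunit *VBP1*, which binds VHL, had 0.23 in HIF2α-KD and 0.12 in control cells. The adaptors *ELOB* and *ELOC* were within 0.08 of 0 under both labels.

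Of the HIF coactivators and repressors, 7 of 9 were kept, and their median oxygen difference was 0.34 in HIF2α-KD and 0.37 in control cells, beside 0.02 and 0.03 over all genes. The acetyltransferase *CREBBP*, whose contact with HIFα the hydroxylase FIH blocks, had 412 in HIF2α-KD and 654 in control cells in hypoxia, and 312 in HIF2α-KD and 396 in control cells in normoxia. *CITED2*, which competes with HIFα for that coactivator and is itself a known hypoxia target, had 117 in HIF2α-KD and 208 in control cells in hypoxia, and 63.9 in HIF2α-KD and 125 in control cells in normoxia. Both genes were lower in HIF2α-KD than in control cells at either oxygen level, by log2 differences of -0.65 and -0.33 for *CREBBP* and -0.75 and -0.82 for *CITED2* in hypoxia and normoxia. The median of the list between HIF2α-KD and control cells was -0.41 in hypoxia and -0.22 in normoxia, beside -0.04 over all genes at either oxygen level. *NCOA1*, a nuclear receptor coactivator, had an oxygen difference of -0.09 in HIF2α-KD and 0.51 in control cells, and the Mediator subunit *MED1* had 0.23 in HIF2α-KD and 0.37 in control cells.

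Of the genes for HIFα stability and translation, 17 of 19 were kept, with a median oxygen difference of -0.07 in HIF2α-KD and -0.08 in control cells. The SUMO protease *SENP1* was the lowest in both cell lines, with -0.88 in HIF2α-KD and -0.60 in control cells. The ubiquitin ligase *SIAH1*, of the family that targets prolyl hydroxylases, had 0.45 in HIF2α-KD and 0.57 in control cells. The HSP90 cochaperone *PTGES3* had 0.11 in HIF2α-KD and -0.24 in control cells, and *SART1* had -0.15 in HIF2α-KD and -0.23 in control cells.

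Of 12 other proteins with the basic helix-loop-helix and PAS domains of the HIFs, 7 were kept, with a median oxygen difference of 0.15 in HIF2α-KD and 0.22 in control cells. The clock gene *ARNTL* (BMAL1) had 0.64 in HIF2α-KD and 0.59 in control cells, and its partner *CLOCK*, at 20.3 to 36.9 on the arrays and below background in normoxia, had 0.19 in HIF2α-KD and 0.48 in control cells. *NPAS1* had -0.01 in HIF2α-KD and 0.26 in control cells. *SIM1*, with 0.12 in HIF2α-KD and -0.89 in control cells, was dim too, at 12.9 to 37.7 on the arrays.

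**Figure D5:**
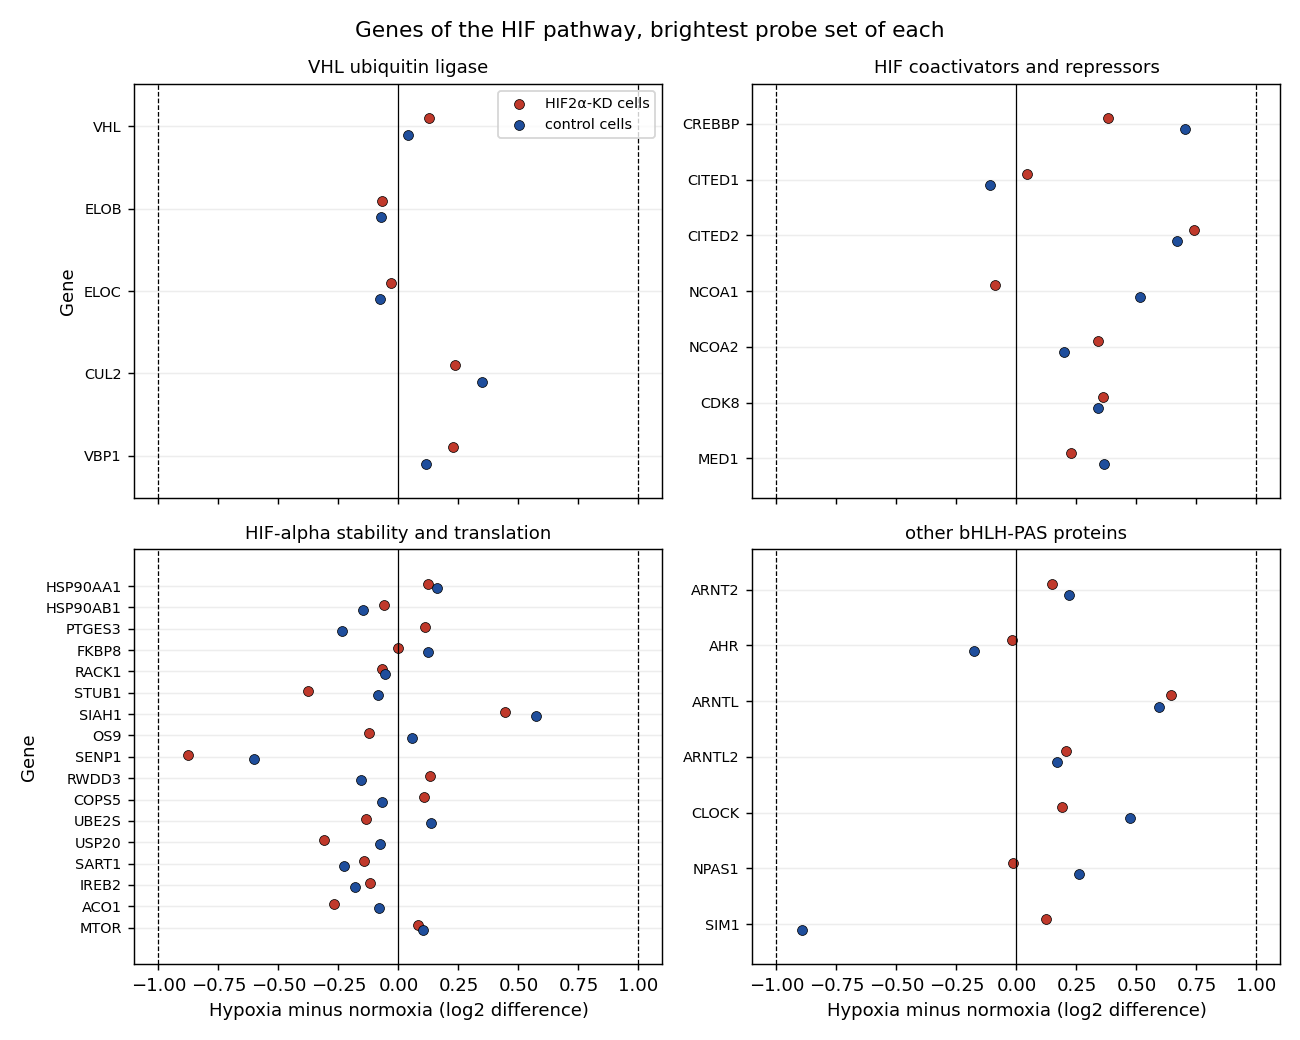
Hypoxia minus normoxia (log2 difference) of the kept genes in 4 lists of HIF pathway genes, with HIF2α-KD cells in red, control cells in blue and dashed lines at 2-fold. No gene reaches 2-fold. *SENP1* lies at -0.88 in HIF2α-KD and -0.60 in control cells, and *CREBBP* at 0.38 in HIF2α-KD and 0.70 in control cells.

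The profiles most like those of *EPAS1*, *EGLN3* and *ANKRD37* over the 4 arrays were found by the Euclidean distance of log2 values after each profile's mean was taken off, among 9748 genes. Genes whose symbol starts with LOC count in the medians but were passed over when the closest genes were named. Closest to *EPAS1* was *PDLIM5*, an actin-associated PDZ and LIM domain protein, at a distance of 0.22 beside a median of 1.10 over all genes. *PDLIM5* had 84.5 in HIF2α-KD and 208 in control cells in hypoxia, and 95.6 in HIF2α-KD and 93.1 in control cells in normoxia, again with the hypoxic control array alone high. *GEM*, a small GTPase, and *RNF19B*, a ubiquitin ligase, followed at 0.29 and 0.30, *GEM* with 18.7 in HIF2α-KD cells in hypoxia and 21.3 in control cells in normoxia, both below background.

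Closest to *EGLN3* was *ANKRD37*, at 0.24 beside a median of 3.10, followed by *PDK1*, the kinase that inhibits pyruvate dehydrogenase, at 0.42 and the glycolytic enzyme *ALDOC* at 0.54. Closest to *ANKRD37* were *EGLN3* at 0.24, *NDRG1*, a known hypoxia target, at 0.60 and *PDK1* at 0.63, beside a median of 3.21. *PDK1* had 2711 in HIF2α-KD and 2956 in control cells in hypoxia, and 303 in HIF2α-KD and 438 in control cells in normoxia. *NDRG1* had 145 in HIF2α-KD and 445 in control cells in hypoxia, and 18.4 in HIF2α-KD and 14.4 in control cells in normoxia. The normoxic values of *EGLN3* and *NDRG1* were below background, so the distances that involve either gene, and their order, rest in part on unmeasured levels. With 4 arrays, a short distance is a description of these arrays only.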

How the data were processed

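RNA from 4 MDCK cultures was labelled with biotin by the authors and hybridised to Affymetrix canine arrays, 1 per condition. The deposited table holds a linear intensity per probe set and array. How the probes were summarized, corrected for background and scaled, and with which software, was not stated in any source used. The number of arrays limits the precision.

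Differences were taken in log2(intensity + 16) and counted at 2-fold, with no test between a pair of arrays. Genes were named from the platform annotation where a probe set had 1 symbol (29254 probe sets), while 439 had several and 13167 none. A lower bound divides the hypoxic intensity by the normoxic one or the 95th percentile of 63 dim reporter probe sets, whichever is higher. The additive limma fit used a mean-dependent prior and Benjamini-Hochberg adjustment at 0.05. In simulated data over 23455 probe sets its oxygen term called 93 of 100 probe sets with a true log2 difference of 1, 100 of 100 with a difference of 2, and 9 with none. The simulation used normal noise of equal spread for every probe set and the same oxygen difference in both cell lines. The additive model was therefore true in it, and these counts do not give the power of the fit on the real arrays.

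The genes and lists were chosen with earlier results of these data known. The text names all probe sets of the 10 genes, up to 4 genes per list with the largest oxygen difference in control cells, and the 3 nearest profiles of *EPAS1*, *EGLN3* and *ANKRD37*. Symbols starting with LOC were passed over among these profiles. Probe sets of a gene were not combined. Alternatives were pseudocounts of 1 and 64, no filter or a filter at 175 (the 75th percentile), quantile, cyclic loess and median normalization, 1 probe set per gene, a 1.5-fold threshold, and limma without trend or with robust moderation. No sequence or coordinate is given, since no genome or sequence table was used here. Software was limma 3.58.1 in R 4.3.3, with matplotlib 3.10.9, pandas 2.3.3 and numpy 2.4.6 in Python 3.11.15 for the figures.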

Additional observations from a re-analysis of the deposited data

Results flagged for a closer look

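*EPAS1* Cfa.17625.1.S1_at was flagged because its differences had opposite signs within both contrasts. The normoxic difference between the cell lines was close to 0, so no reversal of the knockdown difference is read from it. Its log2 difference between HIF2α-KD and control cells was -1.45 in hypoxia and 0.0769 in normoxia. Its log2 difference between hypoxia and normoxia was -0.40 in HIF2α-KD cells and 1.13 in control cells. With 1 array per condition, whether the knockdown difference differed between the oxygen levels, or the oxygen difference between the cell lines, was not tested. Both patterns rest on the same array, the hypoxic control at 116, and on a single probe set, since the other *EPAS1* probe set was below background on every array.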

How the results depend on the processing

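Of 460 single differences recomputed under the alternatives, 458 kept their side of 2-fold and 2 did not. The sign changed in 5, all within 0.1 of 0, for *ARNT* and *VHL* Cfa.16229.1.S1_at with quantile normalization or cyclic loess, and in 0 of those past 2-fold. The 2 are *EPAS1* with a pseudocount of 64, where the control oxygen difference was 0.73 and the difference between HIF2α-KD and control cells in hypoxia was -0.90. A larger pseudocount shrinks dim differences by construction. Over all settings the second value ran between -1.80 and -0.90 and the first between 0.73 and 1.36. The count of 2-fold probe sets between HIF2α-KD and control cells in hypoxia was 1, and it was 0 with a pseudocount of 64, 0 with a filter at 175, which removes *EPAS1*, and 4 at 1.5-fold. With 1 probe set per gene, the count for oxygen in HIF2α-KD cells was 3 against 5, and that of the limma oxygen term 3 against 5, since fewer probe sets were tested. The limma calls of *EGLN1*, *EGLN3* and *ANKRD37* for oxygen held in every setting that kept the probe set. The highest limma adjusted p was 0.0480, for an *EGLN3* probe set with no filter. The *EGLN3* probe sets and the dimmer kept *ANKRD37* probe set passed the main filter through hypoxic arrays only. Their normoxic values were below background on at least 1 array. Their calls under a filter therefore carry this selection, and in every setting they include an unmeasured normoxic level.

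Over all probe sets the counts moved more. At 2-fold there were 495 for oxygen in HIF2α-KD cells, 973 in control cells, 237 between HIF2α-KD and control cells in hypoxia and 280 in normoxia. These were 997, 1684, 568 and 627 with a pseudocount of 1, 236, 467, 78 and 141 with 64, and 2257, 3780, 1587 and 1520 at 1.5-fold. The limma oxygen term called 934, against 71 without a filter, 379 with the filter at 175, 275 with 1 probe set per gene and 416 without the trend. The knockdown term called 0, against 1 with quantile normalization, 34 with median centring, 5 with a pseudocount of 64 and 9 with robust moderation. The cause was not tested. No array could be left out, since each condition has 1. The additive limma fit holds the cell line as a block for oxygen, and no other pairing could be fitted. Intensities near background limit *HIF3A*, *EGLN3* in normoxia, *EPAS1* outside the hypoxic control array and the dim probe sets.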
